A study of Mus musculus with 20 samples.

Results

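The citrate cycle and fatty acid oxidation enzymes described here are 34 mouse genes, listed by name. The list was made with earlier results of these data known. Each was represented by the probe set of its symbol with the highest mean intensity. Of the 34, 32 had such a probe set, among 8251 genes and 12422 probe sets in all. Hadha, the alpha subunit of the trifunctional protein, and Cpt1b, the carnitine palmitoyltransferase of muscle, had none. The 32 genes had 40 probe sets, and 8 genes had more than 1. Idh3b, a subunit of the NAD-linked isocitrate dehydrogenase, and Acadvl, the very long chain acyl-CoA dehydrogenase, were too dim for the filter on low values in every tissue. In the panel of brain, heart, lung and muscle, Idh3b lay between 58.2 and 389.6 and Acadvl between 11.5 and 112. The tests below therefore cover 30 genes.

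The citrate cycle in the mitochondrial matrix burns acetyl-CoA and hands the electrons to the respiratory chain. Acetyl-CoA comes from pyruvate through the pyruvate dehydrogenase complex (Pdha1, Pdhb, Dld) and from fatty acids through beta-oxidation. Long fatty acids enter the matrix as carnitine esters, made by Cpt1a or its muscle form, carried by Slc25a20 and turned back into acyl-CoA by Cpt2. Heart draws most of its energy from fatty acids, whereas brain uses mainly glucose and ketone bodies. Brown fat, which makes heat through the uncoupling protein Ucp1, burns fatty acids at a high rate, and white fat stores them.

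The study measured RNA on short-oligonucleotide arrays in a mouse model of sleep apnea. The tissue panel used C57BL-6J mice aged 20 weeks and held 1 array for each of heart, skeletal muscle, lung and brain under hypoxia, sleep fragmentation (repeated interruption of sleep) and control, 12 arrays in all. Subcutaneous adipose tissue, from mice aged 12 weeks, was on 8 arrays, 2 in each of the groups GlucoseHyp, GlucoseNonHyp, ConHyp and ConNonHyp. The labels name C57BL-6J mice and mice with the obesity mutation of the leptin gene (C57BL-6J-Lep, in some labels C57BL-6J-LepOb), but not which strain is on which array nor what Con and Glucose mean. The Hyp groups breathed intermittent hypoxia, in which oxygen dropped from 20.9% to 5% within 30 sec and returned to 20%, for 16 hours a day on 5 days, and the NonHyp groups had intermittent room air. Whether arrays of a group came from separate animals is not stated, so p-values measure only the spread between arrays, and the small number of arrays limits the precision. In the panel the arrays of a tissue differ in exposure and are not replicates. The spread there is what remains after additive terms for tissue and exposure, so panel p-values do not rest on replicate arrays.

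The labelled tissues carried some of their markers and not others. The heart arrays held Myh6, the cardiac myosin heavy chain, at 4838, 16385 and 14573 (hypoxia, fragmentation, control, as in every triplet below), brain held the synaptic gene Snap25 at 13762, 15585 and 15322 and muscle held the fast troponin Tnnt3 at 16385, 16104 and 17409.9. In lung the surfactant gene Sftpb was high (5008, 7332 and 4516), but Sftpc was not (10.3, 893 and 194), Sftpd read 239.7, 256 and 248, below the heart and brain control arrays (305 and 319.6), and Myh6 was present at 2728, 2194 and 2855. The airway gene Scgb1a1 read 385, 8719.7 and 314 in lung and was highest on the brain control array, at 12924. The cardiac actin Actc1 read 2693, 9905 and 1286 in heart and 9883, 9209.8 and 13146 in muscle. On the muscle arrays Acta1, the skeletal actin, read only 1605, 564 and 1430.3, below the brain control array at 7858. Atp2a1 (649, 1123 and 163, against 2583) and Pvalb (0.366, 566 and 262, against 3376) were below that array too. For Gapdh, the 3′ control probe set divided by the 5′ one lay between 0.00899 and 0.264 in muscle, at 0.136 on the heart hypoxia array, and from 0.443 to 1.60 on the other panel arrays. For Actb this value was 0.0351, 0.0635 and 0.0288 in lung and 0.0343 on the brain hypoxia array, and from 0.662 to 1.52 on the other panel arrays. Of the adipose arrays, all 8 held the fat hormone Adipoq, between 13274 and 47112, and the muscle gene Acta1, between 10379 and 31018. Muscle genes as a set varied far more than Acta1. The summed intensity of the skeletal muscle fibre list ran from 16964 on GlucoseNonHyp 1 to 229046 on ConNonHyp 2, and Tnnt3 read 470 and 33011 on those arrays. Panel intensities below are quantile normalized, and adipose intensities are as deposited.

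The RefSeq promoters of 5 members show the start regions of genes that the results turn on. Each runs from 250 bases before to 50 bases after a start site, 5′ to 3′ on the gene's strand (GRCm38.p6). Etfdh and Acadm had large heart differences, Ogdh is the other member with the receptor motif of Acadm, Eci1 had the largest difference in adipose tissue, and Cpt1a went against the rest. Capitals mark matches on either strand to AAGGTCA (a half-site of the estrogen-related receptors), to the palindrome of nuclear respiratory factor 1 (the capitals in the middle of Etfdh), and to GGGCGG (the GC box) or TATAAA (the TATA box).
Etfdh: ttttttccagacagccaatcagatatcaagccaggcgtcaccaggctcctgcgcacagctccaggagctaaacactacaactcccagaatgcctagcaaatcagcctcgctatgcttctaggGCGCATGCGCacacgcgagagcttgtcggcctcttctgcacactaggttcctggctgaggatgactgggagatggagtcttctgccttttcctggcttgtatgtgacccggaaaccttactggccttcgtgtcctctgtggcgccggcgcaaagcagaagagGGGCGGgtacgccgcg
Acadm: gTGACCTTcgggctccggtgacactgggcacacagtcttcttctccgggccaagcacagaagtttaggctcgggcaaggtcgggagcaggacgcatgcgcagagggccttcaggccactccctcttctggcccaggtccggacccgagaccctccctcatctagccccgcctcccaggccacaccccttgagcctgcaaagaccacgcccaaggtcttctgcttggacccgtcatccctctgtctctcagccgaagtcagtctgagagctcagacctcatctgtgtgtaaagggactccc
Ogdh: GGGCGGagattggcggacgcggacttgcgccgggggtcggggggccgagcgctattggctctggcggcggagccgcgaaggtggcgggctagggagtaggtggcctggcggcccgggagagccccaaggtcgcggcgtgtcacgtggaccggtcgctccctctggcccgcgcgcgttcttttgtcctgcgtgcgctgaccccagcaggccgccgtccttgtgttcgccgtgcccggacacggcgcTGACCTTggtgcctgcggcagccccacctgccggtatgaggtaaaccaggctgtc
Eci1: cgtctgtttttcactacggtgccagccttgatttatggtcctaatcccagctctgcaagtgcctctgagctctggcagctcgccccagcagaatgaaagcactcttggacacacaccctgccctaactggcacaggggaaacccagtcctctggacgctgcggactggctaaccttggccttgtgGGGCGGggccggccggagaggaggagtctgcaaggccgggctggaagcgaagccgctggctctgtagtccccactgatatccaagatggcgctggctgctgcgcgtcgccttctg
Cpt1a: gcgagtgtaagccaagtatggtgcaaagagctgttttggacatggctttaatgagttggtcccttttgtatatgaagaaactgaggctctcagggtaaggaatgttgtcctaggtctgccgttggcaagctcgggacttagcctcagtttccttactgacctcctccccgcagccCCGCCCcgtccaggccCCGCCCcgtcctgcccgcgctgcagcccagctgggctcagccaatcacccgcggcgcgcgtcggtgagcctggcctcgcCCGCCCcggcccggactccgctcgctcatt

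These windows are chr3:79628718-79629017 (minus strand) for Etfdh, chr3:153944594-153944893 (minus strand) for Acadm, chr11:6291920-6292219 (plus strand) for 1 of 6 listed starts of Ogdh, chr17:24426433-24426732 (plus strand) for Eci1 and chr19:3323051-3323350 (plus strand) for Cpt1a. No 2 matches overlapped in them. Promoters were listed for 29 of the 32 genes. AAGGTCA occurred in 2 of the 29, Acadm and Ogdh (6.90%), against 5.38% of 27025 genes with a listed promoter. Of the 6 starts of Ogdh only the window shown held it, and a gene was counted when any listed start held the motif. The palindrome of nuclear respiratory factor 1 was in 1 of 29, Etfdh (3.45%), against 1.07% of genes. The GC box was in 21 of 29 (72.4%), against 38.2% of genes, and the TATA box in 0 of 29, against 15.7%. These are counts of letters in a short window and were not tested.

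Across the panel, heart held the highest levels of most members. Of the 30, 26 were higher in heart than in the mean of muscle, lung and brain at an adjusted p under 0.05 (limma, Benjamini-Hochberg over all 7453 probe sets tested), against 19.1% of all probe sets, and 0 were lower, against 19.3%. The median log2 difference was 1.43, against 0.00 over all probe sets. For 19 of 30 members every heart array lay above all 9 others, against 6.24% of probe sets. In whole tissue, fewer cells of a type and less RNA per cell cannot be told apart.

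**Figure D1:**
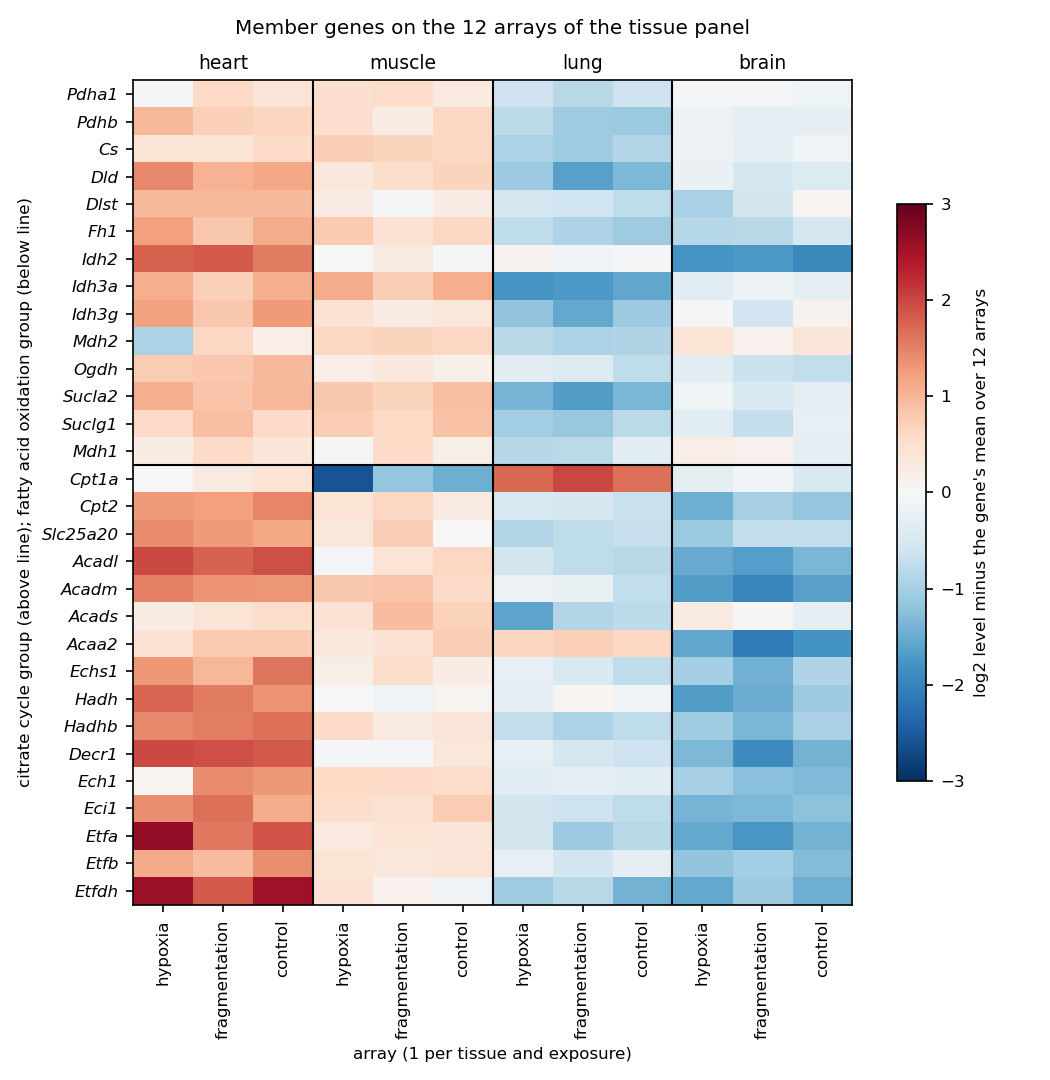
Log2 levels (offset added) of the 30 tested members on the 12 panel arrays, each minus its own mean over the arrays, with red above and blue below that mean. Rows are genes, the citrate cycle group above the line and the fatty acid oxidation group below it, and columns are arrays by tissue and exposure. Heart is red for nearly every gene, brain is bluest in the lower block and lung in the upper one, and Cpt1a is reversed, with its highest levels in lung and lowest in muscle.

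The 2 steepest heart differences were in electron transfer genes. Etfdh, the oxidoreductase that passes electrons from fatty acid oxidation to ubiquinone, read 8443, 5013 and 8266 in heart, against 394, 579 and 1823 (lowest, median and highest) on the 9 other arrays. Its heart arrays did not overlap the rest, and the log2 difference was 3.10 ± 0.21 (8.57-fold, adjusted p = 4.29e-06). Etfa, a subunit of the flavoprotein that feeds Etfdh, read 15322, 7332 and 9125 in heart, against 652, 1309.8 and 3240.3 elsewhere, again without overlap (2.71 ± 0.18, 6.53-fold, adjusted p = 4.12e-06). Etfb, its partner subunit, differed by 1.53 ± 0.14 (2.89-fold, adjusted p = 2.77e-05). The second probe set of Etfb gave -0.05 ± 0.15 (adjusted p = 0.806).

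Enzymes of the beta-oxidation spiral followed. Acadl, the long chain acyl-CoA dehydrogenase, read 6948, 5934 and 6699 in heart, against 466, 959 and 2644 on the other arrays. Every heart array exceeded the rest by a wide margin, and the difference was 2.52 ± 0.16 (5.74-fold, adjusted p = 2.91e-06). Decr1, the dienoyl-CoA reductase needed for polyunsaturated fatty acids, read 3101, 3037 and 2809 in heart, against 124, 469 and 929 elsewhere (2.56 ± 0.15, 5.89-fold, adjusted p = 2.34e-06). Acadm, the medium chain dehydrogenase, differed by 1.85 ± 0.15, and the later enzymes Hadh by 2.07 ± 0.16, Hadhb by 2.06 ± 0.12, Echs1 by 1.74 ± 0.18 and Acaa2, the final thiolase, by 0.90 ± 0.16, all past the threshold. Of the isomerases, Eci1 differed by 1.85 ± 0.15 and Ech1 by 1.24 ± 0.24, also past it. Acads, the short chain dehydrogenase, read 5616, 6424 and 7028 in heart, against 1556, 4959 and 9299 elsewhere, and missed the threshold (0.52 ± 0.19, adjusted p = 0.0503). Its second probe set gave 1.77 ± 0.12, so the 2 probe sets of Acads disagree.

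In the citrate cycle, Idh2, the NADP-linked mitochondrial isocitrate dehydrogenase, stood apart in heart. It read 9101, 9620.5 and 7944 there, against 618, 2559.9 and 3186 on the other arrays, with no overlap (2.30 ± 0.12, 4.91-fold, adjusted p = 1.38e-06). Dld, the dihydrolipoamide dehydrogenase shared by the pyruvate and oxoglutarate complexes, differed by 1.63 ± 0.14, and Idh3g, a regulatory subunit of the NAD-linked isocitrate dehydrogenase, by 1.47 ± 0.13. Fh1 (fumarase) differed by 1.40 ± 0.14, Dlst and Ogdh, subunits of the oxoglutarate complex, by 1.30 ± 0.19 and 1.13 ± 0.14, Sucla2 and Suclg1, of the succinyl-CoA ligases, by 1.30 ± 0.11 and 0.92 ± 0.15, and Idh3a by 1.28 ± 0.13. Cs, the citrate synthase that opens the cycle, differed least of the 10 cycle genes that passed (0.62 ± 0.11). Pdhb (1.04 ± 0.13) and the cytosolic malate dehydrogenase Mdh1 (0.52 ± 0.17) passed too, as did Cpt2 (1.76 ± 0.14) and Slc25a20 (1.71 ± 0.16), which bring fatty acids into the matrix.

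Besides Acads, 3 members did not differ in heart at the threshold. Pdha1, the catalytic subunit of pyruvate dehydrogenase, gave 0.42 ± 0.15 (adjusted p = 0.0535), and Cpt1a gave 0.30 ± 0.21. Mdh2, the mitochondrial malate dehydrogenase, gave -0.05 ± 0.25, with 4906, 14750.0 and 11061 in heart. Its hypoxia array lay far below the other heart arrays, and those were in the range of muscle (14750.0, 15149 and 14750.0) and brain (12682, 10534 and 12402).

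Muscle was next in order. Of the 30 members, 21 were higher in muscle than in the mean of the other 3 tissues, against 24.9% of probe sets, and 1, Cpt1a, was lower, against 27.5%. Cpt1a had the largest difference in size (-2.32 ± 0.21). The median difference was 0.56. Heart held the highest mean for 23 of the 30 and muscle for 6, against 20.0% and 26.3% of probe sets. Of the higher members Idh3a differed most. Idh3a, the catalytic subunit of the NAD-linked isocitrate dehydrogenase, read 7772, 6043 and 7712 in muscle, against 985, 2872 and 7712 elsewhere (1.31 ± 0.13, 2.47-fold, adjusted p = 4.49e-05), overlapping heart. Of the same group, Sucla2 (1.06 ± 0.11), Suclg1 (0.99 ± 0.15), Cs (0.91 ± 0.11), Mdh2 (0.84 ± 0.25), Fh1 (0.83 ± 0.14), Dld (0.68 ± 0.14), Pdhb (0.60 ± 0.13), Pdha1 (0.59 ± 0.15) and Idh3g (0.44 ± 0.13) were higher too. Of the fatty acid oxidation genes, those higher in muscle were Acadm (0.99 ± 0.15), Acads (0.92 ± 0.19), Eci1 (0.78 ± 0.15), Ech1 (0.76 ± 0.24), Acaa2 (0.66 ± 0.16), Cpt2 (0.58 ± 0.14), Hadhb (0.54 ± 0.12), Etfb (0.50 ± 0.14), Etfa (0.48 ± 0.18), Slc25a20 (0.48 ± 0.16) and Acadl (0.44 ± 0.16). The second probe set of Etfb gave 0.04 ± 0.15 in muscle (adjusted p = 0.86). The muscle arrays had low 3′ to 5′ values of Gapdh (0.00899 to 0.264) and read below the brain control array for Acta1, Atp2a1 and Pvalb. The part of either here and in heart minus muscle was not tested. For Cs every muscle array (11462, 11022 and 10697) exceeded every heart array (9209.8, 9089 and 10286), although heart minus muscle missed the threshold (-0.21 ± 0.14, adjusted p = 0.293).

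Heart was also set against muscle directly. Of the 30, 18 were higher in heart and 0 lower, against 13.8% and 11.0% of probe sets, with a median difference of 0.74. With the arrays scaled to the same median in place of quantile normalization, the split was 14 higher and 2 lower. Of the 16 fatty acid oxidation genes 13 were higher (median 0.96), and of the 14 genes of the cycle, pyruvate entry and Mdh1, 5 were (median 0.25). Whether the gene groups differ was not tested. Etfdh (2.18 ± 0.25), Cpt1a (1.96 ± 0.26), Decr1 (1.83 ± 0.18), Etfa (1.67 ± 0.22), Idh2 (1.64 ± 0.15) and Hadh (1.57 ± 0.19) led. The others that passed were Acadl (1.56 ± 0.19), Hadhb (1.14 ± 0.15), Echs1 (0.99 ± 0.23), Slc25a20 (0.92 ± 0.20), Cpt2 (0.88 ± 0.17), Dlst (0.84 ± 0.23), Eci1 (0.81 ± 0.18), Etfb (0.77 ± 0.17), Idh3g (0.77 ± 0.15), Dld (0.71 ± 0.17), Acadm (0.65 ± 0.18) and Ogdh (0.63 ± 0.17). The cycle genes Idh3a (-0.02 ± 0.17), Suclg1 (-0.05 ± 0.18) and Sucla2 (0.18 ± 0.14) did not. Acads gave -0.30 ± 0.23 by its chosen probe set and 0.88 ± 0.15 by its second (adjusted p = 0.367 and 0.00221). The second probe set of Etfb gave -0.07 ± 0.19 (adjusted p = 0.833).

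Most members were low in brain and lung. In brain, 0 members were higher and 21 of 30 lower than the mean of the other tissues, against 23.5% and 25.9% of probe sets, with a median of -1.07. In lung 2 were higher and 25 lower, against 28.1% and 33.7%, with a median of -0.93 (-0.10 over all probe sets). Brain was lower for 14 of the 16 fatty acid oxidation genes (median -1.69) and 7 of the 14 others (median -0.37). Lung was lower for 13 of those 14 (median -1.26) and for 12 of the 16 fatty acid oxidation genes (median -0.69). Acadm read 1362, 1073 and 1402 in brain, against 2689.8, 7986 and 13084 on the 9 other arrays, and did not overlap them (-2.35 ± 0.15, 5.11-fold, adjusted p = 6.99e-07). The other fatty acid oxidation genes lower in brain were Acaa2 (-2.43 ± 0.16), Etfa (-2.09 ± 0.18), Decr1 (-2.07 ± 0.15), Acadl (-2.01 ± 0.16), Hadh (-1.90 ± 0.16), Etfdh (-1.82 ± 0.21), Eci1 (-1.77 ± 0.15), Cpt2 (-1.61 ± 0.14), Ech1 (-1.60 ± 0.24), Etfb (-1.56 ± 0.14), Hadhb (-1.51 ± 0.12), Echs1 (-1.50 ± 0.18) and Slc25a20 (-1.14 ± 0.16). From the other group they were Idh2 (-2.40 ± 0.12), Fh1 (-0.99 ± 0.14), Ogdh (-0.77 ± 0.14), Dlst (-0.64 ± 0.19), Suclg1 (-0.58 ± 0.15), Dld (-0.51 ± 0.14) and Sucla2 (-0.39 ± 0.11). Acads gave 0.01 ± 0.19 in brain by its chosen probe set and -2.19 ± 0.12 by its second (adjusted p = 3.19e-07). The second probe set of Etfb gave 0.16 ± 0.15 there (adjusted p = 0.428), and that of Sucla2 missed the threshold (-0.37 ± 0.17, adjusted p = 0.101).

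In lung the lower genes of the cycle, pyruvate entry and Mdh1 were Idh3a (-2.23 ± 0.13), Sucla2 (-1.98 ± 0.11), Dld (-1.80 ± 0.14), Idh3g (-1.69 ± 0.13), Suclg1 (-1.33 ± 0.15), Pdhb (-1.31 ± 0.13), Cs (-1.29 ± 0.11), Fh1 (-1.23 ± 0.14), Mdh2 (-1.19 ± 0.25), Pdha1 (-0.92 ± 0.15), Mdh1 (-0.88 ± 0.17), Dlst (-0.84 ± 0.19) and Ogdh (-0.66 ± 0.14). The lower fatty acid oxidation genes there were Etfdh (-1.48 ± 0.21), Acads (-1.45 ± 0.19), Etfa (-1.10 ± 0.18), Hadhb (-1.09 ± 0.12), Slc25a20 (-1.04 ± 0.16), Acadl (-0.95 ± 0.16), Eci1 (-0.86 ± 0.15), Cpt2 (-0.73 ± 0.14), Echs1 (-0.65 ± 0.18), Decr1 (-0.61 ± 0.15), Acadm (-0.49 ± 0.15) and Etfb (-0.48 ± 0.14), and the 2 higher ones were Cpt1a (2.38 ± 0.21) and Acaa2 (0.87 ± 0.16). All lung arrays also held some heart genes, such as Myh6 and Tnni3 (1730, 1727 and 2268), but not others. In lung Ryr2 read 334, 221 and 258, below brain (2138, 1286 and 1659.5). Nppb read 203, 270 and 381 there, near brain (423, 308 and 361). The lung arrays had low 3′ to 5′ values of Actb (0.0288 to 0.0635) as well. The part of the heart genes or of the low Actb values in the member levels was not tested. In lung the second probe set of Acads gave -0.19 ± 0.12 (adjusted p = 0.206) and that of Etfb -0.14 ± 0.15 (adjusted p = 0.449).

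Brain minus lung, a contrast chosen after the values were seen, gave 11 members higher and 13 lower, against 26.8% and 24.2% of probe sets. The higher ones held 10 of the 14 genes of the cycle, pyruvate entry and Mdh1, and the lower ones 12 of the 16 fatty acid oxidation genes. Idh3a read 2822, 3207 and 2872 in brain, against 985, 1015 and 1155 in lung, with no overlap (1.42 ± 0.17, 2.67-fold, adjusted p = 5.3e-05). Mdh2 read 12682, 10534 and 12402 in brain, against 5327, 4939 and 5031 in lung, also apart (1.20 ± 0.31). Sucla2 (1.19 ± 0.14), Idh3g (1.11 ± 0.15), Dld (0.97 ± 0.17), Cs (0.79 ± 0.14), Pdhb (0.74 ± 0.16), Mdh1 (0.68 ± 0.21), Pdha1 (0.62 ± 0.19) and Suclg1 (0.57 ± 0.18) were higher too.

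Acaa2 showed the opposite order most strongly. It read 2103, 1403 and 1777 in brain, against 10039, 10554 and 9883 in lung, where it was close to heart (-2.48 ± 0.19, 5.58-fold, adjusted p = 2.63e-06). Cpt1a (-2.06 ± 0.26), Acadm (-1.40 ± 0.18), Hadh (-1.31 ± 0.19), Decr1 (-1.09 ± 0.18), Ech1 (-0.89 ± 0.29), Etfb (-0.81 ± 0.17), Acadl (-0.80 ± 0.19), Etfa (-0.74 ± 0.22), Eci1 (-0.68 ± 0.18), Cpt2 (-0.66 ± 0.17) and Echs1 (-0.64 ± 0.23) were lower in brain. In each group 1 gene went the other way. Idh2, a cycle enzyme by place but NADP-linked, was lower in brain, with 704, 731 and 618, against 2802, 2473 and 2566 in lung (-1.79 ± 0.15, 3.47-fold, adjusted p = 4.21e-06). Acads was higher in brain by its chosen probe set (1.09 ± 0.23) and lower by its second (-1.50 ± 0.15), so its direction is not settled. Ogdh, Dlst, Fh1, Slc25a20, Hadhb and Etfdh missed the threshold. The second probe set of Etfb gave 0.22 ± 0.19 (adjusted p = 0.348).

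**Figure D2:**
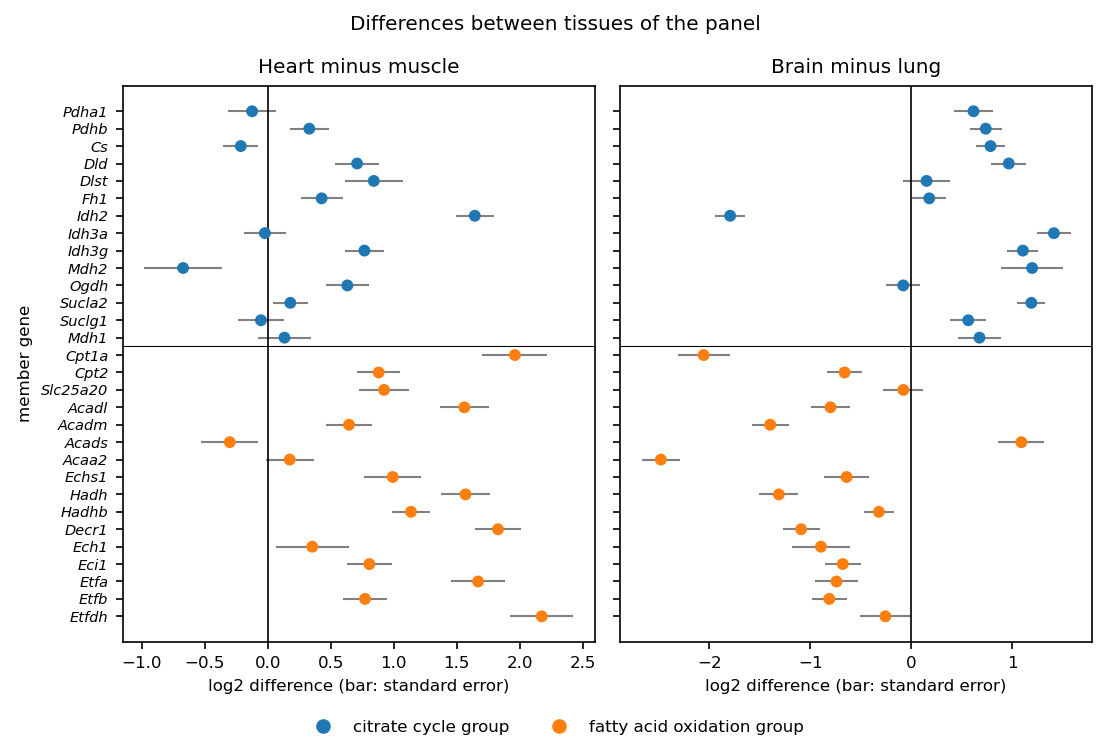
Log2 differences of the 30 members between heart and muscle (left) and between brain and lung (right), with standard errors. Blue points are the citrate cycle group and orange points the fatty acid oxidation group. On the right most blue points lie above 0 and most orange points below it, with Idh2 and Acads as the exceptions that passed the threshold.

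Cpt1a, the carnitine palmitoyltransferase that is best known from liver and controls the entry of long fatty acids, did not share the order of the rest. It read 5173, 6298 and 4939 in lung, 1509, 1849 and 2026 in heart, 1228, 1423 and 1071 in brain and 171, 619.7 and 483 in muscle. These 4 ranges did not overlap, so the order lung, heart, brain, muscle held on every array. Lung exceeded the mean of the others by 2.38 ± 0.21 (5.20-fold, adjusted p = 8.42e-06) and the muscle difference was -2.32 ± 0.21 (4.98-fold, adjusted p = 2.06e-05). The other carnitine genes kept the common order, with Cpt2 at 8099.5, 7814 and 9194 in heart and 1133, 1606 and 1413 in brain, and Slc25a20 at 5673, 5147 and 4722 in heart and 903, 1213 and 1204 in brain. Over the 12 arrays, which share tissues, 26 of the 29 other members (89.7%) correlated negatively with Cpt1a, as did 53.0% of all other probe sets tested.

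No member passed the threshold for either exposure across the tissues. Sleep fragmentation minus control gave 0 of 30 past the threshold in either direction, as it gave 0% of all probe sets. At an unadjusted p under 0.05 there were 336 probe sets (4.51%), of which 1 was a member, Idh3g. It read 9266, 6210.2, 1739 and 3489 with fragmentation in heart, muscle, lung and brain, against 12924, 6603, 2416 and 5673 on the control arrays. The fragmentation value was the lower one in each tissue (-0.43 ± 0.13, adjusted p = 0.97). Next were Sucla2 (-0.21 ± 0.12) and Hadhb (-0.21 ± 0.13), and in the positive direction Idh2 (0.18 ± 0.13), Slc25a20 (0.21 ± 0.17) and Cpt1a (0.23 ± 0.22).

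Hypoxia minus control also gave 0 of 30, and 0% of probe sets. Here 371 probe sets (4.98%) and 0 members had an unadjusted p under 0.05. The member differences ran between -0.32 (Cpt1a) and 0.24 (Acadm), with standard errors of 0.12 to 0.27. Acads (-0.20 ± 0.20), Dlst (-0.20 ± 0.20), Pdhb (0.17 ± 0.14) and Ogdh (0.16 ± 0.15) came next by p. The fit tests changes shared by the 4 tissues, and differences of these sizes lie within its error.

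Within a tissue each exposure had 1 array, so the following differences have no replicate check. In heart, Mdh2 read 4906 with hypoxia, against 11061 in the control (2.23-fold lower), and Ech1 4038 against 9620.5 (2.35-fold lower). They were the members 2-fold or more lower there, as were 2.19% of probe sets, and no member was 2-fold or more higher, as 3.8% were. On the same array Myh6 read 4838, against 14573 in the control, the brown fat gene Ucp1 3980.4 against 743, and the Gapdh ratio 0.136 against 0.443. The heart genes Nppa, Tnni3 and Nppb were lower too, but Ryr2 (12574 against 8461) and Actc1 (2693 against 1286) were higher. Of the brown fat genes Cidea (2424 against 1190), Elovl3 and Ppargc1a were higher as well. Cox8b was lower (7480 against 8605), and Cox7a1 and Dio2 were nearly equal. The part of these in the values of Mdh2 and Ech1 was not tested. In contrast, Etfa read 15322 with hypoxia, against 9125, and Hadh 10697 against 8161.

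In muscle, Cpt1a read 171 with hypoxia, against 483 in the control (2.16-fold lower on the log2 scale with offset), as were 4.13% of probe sets by 2-fold or more, and 0 members were higher by as much (2.80%). Acadl was next lowest (1637 against 2644), and the highest were Etfdh (1823 against 1223) and Slc25a20 (2639 against 2051). The muscle hypoxia array also held more Adipoq than the control (3421 against 561), whose part was not tested. In brain, Dlst read 1189.5 with hypoxia, against 2550.5 (2.06-fold lower), where 4.15% of probe sets were 2-fold or more lower and 1.99% higher. The Actb value of that array was 0.0343, against 0.683 in the control, and its part was not tested. Next lowest was Hadh (911 against 1410.3), and the highest were Acads (5818 against 3942) and Mdh1 (1247 against 867). In lung no member was 2-fold apart with hypoxia (1.37% of probe sets higher, 1.57% lower), with Acads (1556 against 2736) and Mdh1 (554 against 829) lowest and Acadm (4103 against 2689.8) and Echs1 (1441 against 975) highest. On that lung hypoxia array the skeletal muscle fibre list summed to 23999, against 6265 in the control, with only Pvalb lower (3381 against 3641). The part of this was not tested.

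Sleep fragmentation left every member within 2-fold of its control in all 4 tissues. The shares of probe sets 2-fold or more higher and lower were 2.11% and 2.09% in heart, 3.97% and 3.94% in muscle, 0.912% and 0.778% in lung, and 1.91% and 2.09% in brain. In heart Etfdh (5013 against 8266) and Echs1 (3540.3 against 5457) were lowest, and Eci1 (10114 against 6987) and Mdh2 (14750.0 against 11061) highest. In muscle Slc25a20 was highest (3540.3 against 2051), on an array that also held more of the fat hormone Adipoq (7177 against 561), whose part was not tested. In brain Idh3g (3489 against 5673) and Dlst (1631 against 2550.5) were lowest, and Mdh1 (1182 against 867) and Etfdh (575 against 418) highest. In muscle Mdh1 (1636 against 1217) was next to highest, and Pdhb (5498 against 7260.3) and Decr1 (702 against 929) lowest. In lung Mdh1 (573 against 829) and Idh3g (1739 against 2416) were lowest, and Etfdh (699 against 440.3) and Acadm (3905 against 2689.8) highest.

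In adipose tissue the question was how the Glucose arrays differed from the Con arrays. Of 30 members, 2 fell on Glucose, against 3.54% of probe sets, and 0 rose, against 4.04%. Eci1, which moves the double bond of unsaturated fatty acids, read 1661 and 2001 on GlucoseHyp and 1829 and 2884 on GlucoseNonHyp, against 16806 and 4882 on ConHyp and 14411 and 5391 on ConNonHyp. All 4 Glucose arrays lay below all 4 Con arrays, and the log2 difference was -2.13 ± 0.48 (4.37-fold, adjusted p = 0.0412). Echs1, the short chain enoyl-CoA hydratase, read 2444 and 2058 on GlucoseHyp and 2727 and 2909 on GlucoseNonHyp, against 10565 and 4721 on ConHyp and 8242 and 4719 on ConNonHyp. It was likewise apart (-1.40 ± 0.33, 2.64-fold, adjusted p = 0.0478). Both calls rest on thin margins. With 1 array left out at a time, Eci1 passed the threshold only without ConHyp 2 or without ConNonHyp 2 (adjusted p = 0.0291 and 0.0467), and Echs1 only without ConHyp 2 (adjusted p = 0.0347). For Eci1 the adjusted p was 0.0996 without ConHyp 1 and 0.11 without ConNonHyp 1.

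The other members leaned the same way without passing. The difference was negative for 26 of 30, against 47.3% of probe sets, with a median of -0.53, against 0.04 over all probe sets. Besides Eci1 and Echs1, 4 members had every Glucose array below every Con array, 6 of 30 in all against 8.33% of probe sets, and 0 members had every Glucose array above, against 11.4%. They were Etfb (-1.35 ± 0.46, adjusted p = 0.126), Fh1 (-1.06 ± 0.41), Ogdh (-0.98 ± 0.36) and Pdha1 (-0.78 ± 0.32). The second probe set of Etfb gave only -0.20 ± 0.53 (adjusted p = 0.865). By its chosen probe set Etfb read 4212 and 4396 on GlucoseHyp and 4073 and 5083 on GlucoseNonHyp, against 25297 and 6959 on ConHyp and 14445 and 6446 on ConNonHyp. The 4 positive differences were in Cpt1a (0.74 ± 0.38, adjusted p = 0.285), Mdh1 (0.27 ± 0.25), Acads (0.24 ± 0.37) and Dld (0.03 ± 0.42). The second probe set of Acads gave -0.87 ± 0.47 (adjusted p = 0.312), so its direction is not settled here either.

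**Figure D3:**
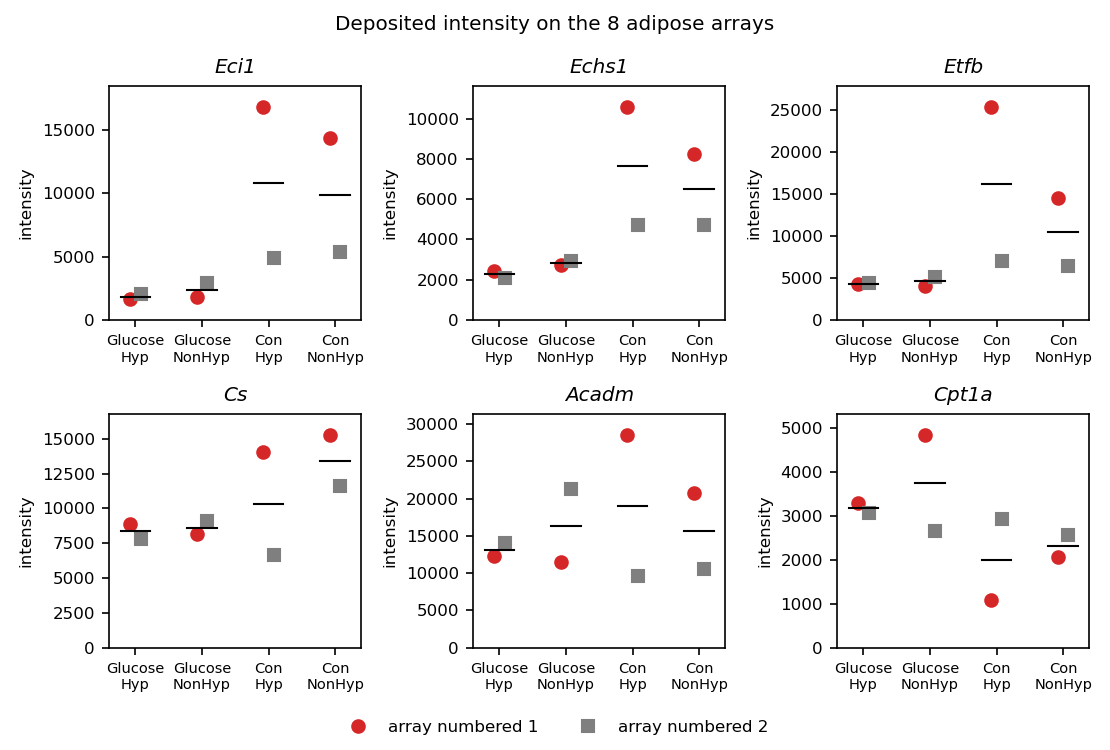
Deposited intensity of 6 members on the 8 adipose arrays by group, with red circles for the arrays numbered 1, grey squares for those numbered 2 and a bar for the mean of the 2. Eci1, Echs1 and Etfb are below on every Glucose array, Cs and Acadm overlap, and in both Con groups the array numbered 1 stands above its partner except for Cpt1a, where it stands below.

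Within Con the arrays numbered 1 stood apart. The arrays of ConHyp and ConNonHyp numbered 1 lay above the other 6 adipose arrays for 25 of 30 members, against 8.57% of probe sets. Cs read 8910.2 and 7786 on GlucoseHyp and 8127 and 9103 on GlucoseNonHyp, against 14051 and 6627 on ConHyp and 15268 and 11595 on ConNonHyp, so that the arrays numbered 1 were the highest in both Con groups and over all 8. Suclg1 read 2701 and 3054 on GlucoseHyp and 2396 and 3745 on GlucoseNonHyp, against 11415 and 3158 on ConHyp and 12315 and 3001 on ConNonHyp, with those 2 arrays again the highest. Hadhb, the beta subunit of the trifunctional protein, read 8012 and 10669 on GlucoseHyp and 8539.9 and 14404 on GlucoseNonHyp, against 35229 and 8377 on ConHyp and 20569 and 13797 on ConNonHyp. By their chosen probe sets, the 5 members outside the pattern were Mdh1, Acads, Acadm, Acaa2 and Cpt1a, and Cpt1a lay below the other 6 arrays on both, as did 7.67% of probe sets. It read 3290.0 and 3069 on GlucoseHyp and 4833 and 2639 on GlucoseNonHyp, against 1070.1 and 2921 on ConHyp and 2069.8 and 2563 on ConNonHyp.

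These 2 arrays also carried markers that were far lower on the other adipose arrays. Of the brown adipocyte list, all 7 genes were on the array. Ucp1 read -28.9 and 87.6 on GlucoseHyp and 264 and 342 on GlucoseNonHyp, against 10666 and 19.5 on ConHyp and 20246 and 215 on ConNonHyp. On the other 6 arrays it did not exceed 342. Cidea, a lipid droplet protein of brown fat, read 5.42 and 175 on GlucoseHyp and 179 and 201 on GlucoseNonHyp, against 40893 and 1301 on ConHyp and 19643 and 3705 on ConNonHyp. Elovl3 and Dio2 were highest on ConNonHyp 1 (299 and 673), and Ppargc1a stayed between -33.8 and 81.8. The summed intensity of the list, negative values counted as 0, was 84189 and 64252 on the 2 arrays, against 1058 to 10009 on the other 6. Genes of slow muscle fibres moved with it, summing to 15588 and 21644, against 254 to 2014, whereas the skeletal muscle fibre list did not. Mean-centred member medians were 1.05 and 0.93 log2 on these arrays and lay between -0.47 and -0.05 on the others. The B cell list instead set all Con arrays apart from all Glucose arrays. It summed to 9225 and 9948 on ConHyp and 6653 and 8533 on ConNonHyp, against 1328 and 1850 on GlucoseHyp and 973 and 1085 on GlucoseNonHyp. The part of this difference in Glucose minus Con was not tested.

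**Figure D4:**
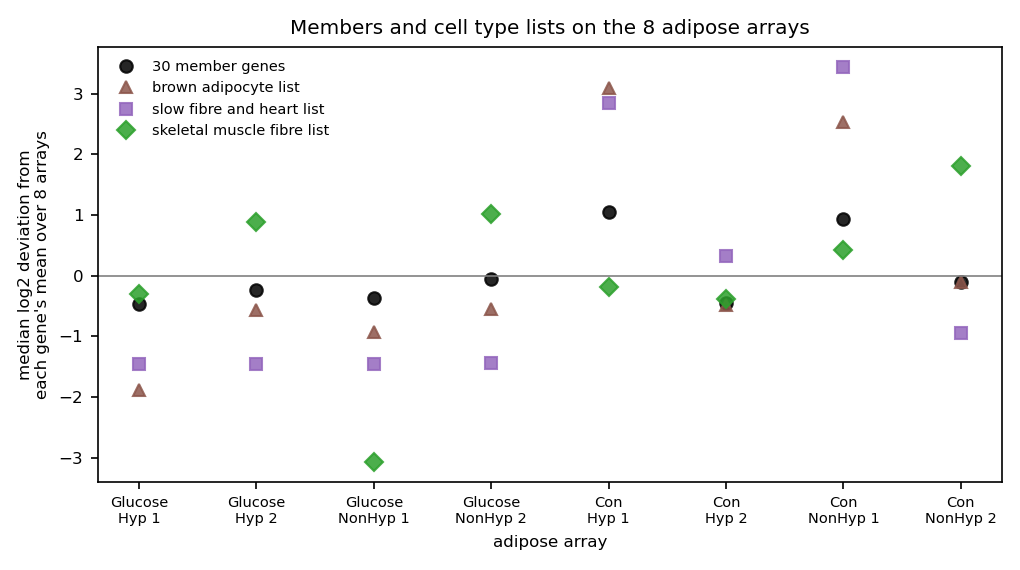
Median log2 deviation from each gene's mean over the 8 adipose arrays, for the 30 members and 3 marker lists, by array. The members stand near 1 on ConHyp 1 and ConNonHyp 1, where the brown adipocyte list and the slow fibre and heart list stand highest, and the skeletal muscle fibre list does not follow.

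Across the 8 arrays, the correlation of members with the median of the brown adipocyte list reached 0.98 (Ogdh). It was 0.60 for Dld, 0.07 for Mdh1, -0.04 for Acads and -0.85 for Cpt1a. These are 8 points, of which 2 stand apart. Most members and the brown adipocyte list were highest on those same 2 arrays, so the correlations restate that pattern. The part of brown fat or slow fibres in the member levels was not tested. Without those 2 Con arrays, Glucose minus Con had a member median of 0.09 (0.02 over all probe sets), with 14 members negative and 16 positive, and 0 members past the threshold, against 92 of 7453 probe sets. Eci1 stayed lowest at -1.33 ± 0.30 (adjusted p = 0.148), and Echs1 was at -0.91 ± 0.23 (adjusted p = 0.17).

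**Figure D5:**
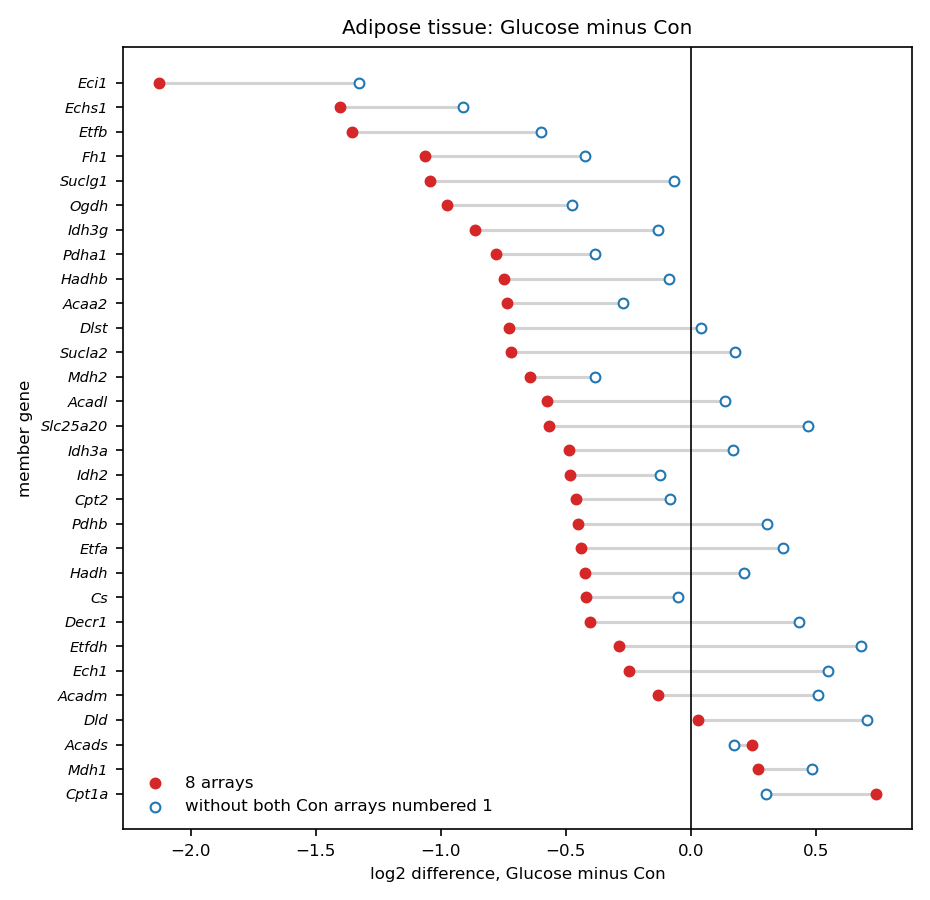
Log2 difference, Glucose minus Con, of the 30 members over all 8 adipose arrays (filled red) and without both Con arrays numbered 1 (open blue), joined per gene. The median is -0.53 over all arrays and 0.09 without those 2, and Eci1 and Echs1 are lowest in both.

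Intermittent hypoxia gave 0 of 30 members past the threshold in adipose tissue. That held on average over Con and Glucose, within Con, within Glucose and for the difference between those effects, as it did for 0% of all probe sets in each. At an unadjusted p under 0.05 there were 110, 218, 159 and 246 probe sets and 0 members in these 4 contrasts, which is 1.48%, 2.92%, 2.13% and 3.30% of probe sets. The average member difference had a median of -0.07 and ran between -0.36 (Acads) and 0.24 (Mdh1), with standard errors of 0.25 to 0.58. The lowest p values in each direction were those of Mdh1 (0.24 ± 0.25), Pdha1 (0.17 ± 0.32), Hadh (0.19 ± 0.40), Acads (-0.36 ± 0.37), Cs (-0.25 ± 0.30) and Cpt1a (-0.28 ± 0.38).

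Within Con the member median was -0.02, where each side holds 1 of the 2 arrays that stand apart. It was -0.72 without ConHyp 1, 0.78 without ConHyp 2, 0.47 without ConNonHyp 1 and -0.57 without ConNonHyp 2. The lowest p values in each direction were those of Hadh (0.53 ± 0.56), Mdh1 (0.28 ± 0.36), Ech1 (0.47 ± 0.65), Cs (-0.46 ± 0.42), Acads (-0.48 ± 0.53) and Cpt1a (-0.38 ± 0.53). Within Glucose the median was -0.10, and the lowest p values there were those of Idh3a (0.43 ± 0.60), Mdh1 (0.21 ± 0.36), Cpt2 (0.19 ± 0.40), Slc25a20 (-0.60 ± 0.81), Echs1 (-0.33 ± 0.47) and Acadl (-0.44 ± 0.65). The hypoxia effect in Glucose minus that in Con had a median of -0.15, with the lowest p values for Idh3a (0.79 ± 0.85), Cpt2 (0.47 ± 0.57), Cs (0.42 ± 0.60), Hadh (-0.67 ± 0.80), Echs1 (-0.51 ± 0.67) and Ech1 (-0.68 ± 0.92). Each of these differences is smaller than 2 standard errors.

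Deposited intensities in adipose tissue can be set beside those of the panel. The arrays came from mice of another age and were processed differently, as negative values occur in adipose tissue alone, so no test was made. The median intensity of Cpt1a was 3179 on Glucose and 2316 on Con arrays, and 4455 in lung, 1511 in heart and 348 in muscle. For Hadhb the medians were 9605 on Glucose and 17183 on Con, and 13487 in heart and 6682 in muscle. For Acads they were 761 on Glucose and 539.5 on Con, and 5625 in heart.

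Of 44 other genes of these pathways on a list set for this work, 28 had a probe set. In heart 18 of the 21 tested were higher than in the other tissues and 0 lower, against 19.1% and 19.3% of probe sets, with a median of 1.32. In brain 0 were higher and 16 lower, against 23.5% and 25.9%. Fabp3, the fatty acid carrier of heart, read 8852, 13596 and 14659 in heart, against 5127, 5137 and 5314 in muscle, 401, 496 and 511 in lung and 539, 561 and 906 in brain (3.22 ± 0.15, 9.31-fold, adjusted p = 6.59e-07). Cd36, a fatty acid uptake protein, differed by 2.23 ± 0.19 in heart, Sdha, a subunit of succinate dehydrogenase, by 1.71 ± 0.15, and Pdk4, the kinase that shuts off pyruvate dehydrogenase, by 2.07 ± 0.16. Among the smallest p in heart were also Eci2 (1.49 ± 0.12) and Oxct1 (1.48 ± 0.14). In muscle 10 were higher and 1 lower, against 24.9% and 27.5%, and the smallest p were those of Pdk4 (2.49 ± 0.16), Ucp3 (2.14 ± 0.14), Fabp3 (1.61 ± 0.15), Crat (1.58 ± 0.15), Dlat (0.77 ± 0.13) and Idh1 (-0.98 ± 0.18). In brain they were those of Pdk4 (-2.53 ± 0.16), Fabp3 (-2.14 ± 0.15), Cd36 (-2.62 ± 0.19), Eci2 (-1.39 ± 0.12), Crat (-1.75 ± 0.15) and Suclg2 (-1.88 ± 0.17). In lung 2 were higher and 15 lower, against 28.1% and 33.7%, with the smallest p for Fabp3 (-2.69 ± 0.15), Sdha (-2.19 ± 0.15), Pdk4 (-2.02 ± 0.16), Dlat (-1.51 ± 0.13), Ucp3 (-1.60 ± 0.14) and Oxct1 (-1.51 ± 0.14). Heart minus muscle gave 11 higher and 1 lower, against 13.8% and 11.0%, with Eci2 (1.13 ± 0.14), Cd36 (1.62 ± 0.23), Fabp3 (1.20 ± 0.19), Hsd17b10 (0.90 ± 0.15), Pdk1 (1.06 ± 0.18) and Ucp3 (-0.96 ± 0.17). There 5 of 9 cycle and pyruvate genes were higher and 0 lower, and of 9 genes of fatty acid and ketone oxidation 5 were higher and 1 lower. Brain minus lung gave 4 higher and 6 lower of 21 (19.0% and 28.6%), near the 26.8% and 24.2% of all probe sets, with Cd36 (-2.21 ± 0.23), Sdha (1.46 ± 0.19), Suclg2 (-1.45 ± 0.20), Eci2 (-0.99 ± 0.14), Oxct1 (0.96 ± 0.17) and Idh1 (-1.22 ± 0.22). Its cycle and pyruvate genes had 2 higher and 3 lower of 9 (median 0.09), and the fatty acid and ketone genes 1 higher and 3 lower of 9 (median -0.37), which did not repeat the split among the members. In adipose tissue 0 of 25 passed in any contrast, and their Glucose minus Con median was -0.51.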

How the data were processed

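RNA was measured on 20 arrays, 8 of subcutaneous adipose tissue and 12 of the tissue panel. The values used are probe set intensities on a linear scale as deposited by the authors. The sources used here do not state how the authors summarised and scaled the probes. The trimmed means are alike on all arrays except that of brain with hypoxia, and only the adipose values go below 0. Of 12422 probe sets that are no controls, 10833 have 1 gene symbol in the platform annotation, 396 have several and 1193 have none.

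For adipose tissue the deposited scaling was kept, and values under an offset of 97.7, the 20th percentile of the positive values, were set to it before log2. The model held the 4 group means. Panel values were quantile normalized, the same offset was added before log2, and the model held tissue and exposure, so that folds of dim genes are understated. Probe sets were tested whose mean (adipose) or highest tissue mean (panel) exceeded the 40th percentile. Tests were two-sided, with limma 3.58.1 in R 4.3.3 and Benjamini-Hochberg adjustment over 7453 probe sets in each set, at 0.05. Values after ± are standard errors of the fit. The steps were tested on simulated data.

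In each contrast every member past the threshold was named, or otherwise the 3 with the smallest p in each direction, and within a tissue the 2 highest and 2 lowest. Pathway genes outside the members were named where they passed, at most 6 per contrast. The members and lists were chosen with earlier results of these data known. The alternatives were the offset, the normalization, the filter, the probe set rule, blocks and leaving out arrays. Promoters came from RefSeq.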

Additional observations from a re-analysis of the deposited data

How the results depend on the processing

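Of the members called, 25 of 26 for heart, 14 of 22 for muscle, 17 of 21 for brain, 24 of 27 for lung, 9 of 18 for heart minus muscle and 15 of 24 for brain minus lung passed in each of the 16 other settings run. The number of members past the threshold was 25 to 28 for heart, 20 to 22 for muscle, 21 to 25 for brain, 27 for lung, 15 to 18 for heart minus muscle and 21 to 24 for brain minus lung under other offsets, scalings, filters and probe set rules. With 1 array left out it was 25 to 27, 16 to 22, 18 to 23, 25 to 28, 14 to 18 and 19 to 24 in that order. Taking the mean of all probe sets of a gene turned Acads in brain minus lung to -0.20. In adipose tissue the 2 members that fell on Glucose were 0 with an offset of 48.9, 0 without the filter, 1 with the replicate block and 0 with the s code of the array names as a block. Within the s2 arrays Eci1 gave -1.80 and Echs1 -1.35, and within the s4 arrays -2.45 and -1.45. Those 2 fits held too few arrays for a test to decide on a call. Without both Con arrays numbered 1, a setting chosen after seeing the data, Eci1 gave -1.33 and Echs1 -0.91. Over all probe sets the number past the threshold also varied, from 0 to 570 over the main and these other settings. Of the members, 2 passed with the offset added, with quantile normalization and with the mean of probe sets. With 1 array left out the number lay between 0 and 3, with 3 without ConHyp 2, 1 without ConNonHyp 2 and 0 for each of the other 6 arrays. The cause of these changes was not tested. Under the replicate block Echs1 kept its call (adjusted p = 0.0436) and Eci1 lost it (adjusted p = 0.0501). Deviations of same-numbered arrays correlated at 0.41 between the 2 Glucose groups, whose equal numbers also share the s code, at 0.18 between the 2 Con groups, and between -0.14 and -0.05 across Glucose and Con. The numbers were therefore not taken as pairs across Glucose and Con. The block changed no call of a hypoxia contrast, where 0 members passed under every setting run. The small number of arrays limits what these tests can show, and Idh3b and Acadvl were too dim to test.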

Other observations

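The median correlation over all pairs of the 30 tested members was 0.79 over the 8 adipose arrays, with 88.0% of pairs above 0, against 0.00 and 50.3% over all pairs of probe sets tested. Over the 12 panel arrays it was 0.79, with 92.6% of pairs above 0, against -0.01 and 49.6% over all pairs. Arrays of a set share tissue and scaling, and 2 adipose arrays stand apart, so these values describe the arrays. In adipose tissue the mean correlation with the other members was 0.18 for Mdh1, -0.06 for Acads and -0.75 for Cpt1a.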
